A study of Mus musculus with 4 samples.

Results

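The 10 chemokine genes described here are Ccl2, Ccl7, Ccl5, Ccl11, Cxcl1, Cxcl5, Cxcl12, Cxcl14, Cxcl16 and Cx3cl1, which are 10 of the 55536 gene rows of the deposited table and of the 26964 rows with at least 1 read. They were chosen by name, as ligands that fibroblasts can make, with measured values of these same libraries in view, so their differences are given as descriptions and carry no p-value. RNA came from the stromal vascular fraction, the cells left after fat cells are removed, of inguinal white adipose tissue of wild-type male mice at postnatal day 21. The 4 libraries formed a crossed design of parents (the offspring groups LnF1 and ObF1, in a series about parental obesity) and drink (water or 1,3BD, as the labels write it). Each library was 1 pool of 3 mice, so no combination had a replicate, and the spread between animals was not measured. All mice shared the genotype, sex, age and fat depot. The dose and duration of 1,3BD are not stated in the sources used here.

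Chemokines are small secreted proteins that bind G protein-coupled receptors on leukocytes and progenitors and steer their migration along gradients held on heparan sulfate. In fat, stromal fibroblasts and adipose progenitors are a known source of chemokines for monocytes, neutrophils and eosinophils, and obesity is known for raising Ccl2 in adipose tissue. Inflammatory members such as Ccl2, Ccl7, Cxcl1 and Cxcl5 are textbook targets of NF-kB, whereas Cxcl12 and Cxcl14 are made at rest, and Cxcl16 and Cx3cl1 are made as membrane proteins that proteases shed.

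Each library held between 24586827 and 26000090 reads. Values are CPM, reads relative to the scaled library total, in which 1 read was worth between 0.0359 and 0.0434 CPM and 3 reads, the most that a count of 0 allows, between 0.108 and 0.130 CPM. Intervals given below are exact 95% intervals for counting error only, and they do not cover the spread between pools. Of 12 fibroblast and progenitor markers, 11 were at 1 CPM or more in some library. The sum of all 12, mostly Fn1 and Col1a1, was between 18122 and 43664 CPM. Their levels were uneven: Pdgfra was at least 235.6 CPM and Pdgfrb at least 153.6, while Dpp4 was at most 0.869, Pi16 at most 2.08 and Lum at most 6.54. Markers of other cells were present at low levels, except those of pericytes and smooth muscle. Their sum, mostly Acta2, was 7922 CPM in LnF1 water and 8396 in ObF1 water, and 184.5 and 203.7 with 1,3BD. Ptprc, which marks all leukocytes, was at most 0.150 CPM, while the most abundant leukocyte and macrophage markers, Cd53 and Lyz2, reached 15.0 and 12.2 CPM. Of the endothelial markers, Cldn5 had at most 1 read, while Tek reached 19.9 CPM, Cdh5 7.21, Emcn 5.69 and Pecam1 4.04. The gene group is therefore measured in RNA with the highest marker sum for fibroblasts, then for pericytes and smooth muscle. Bulk RNA does not assign a read to a cell. Throughout, fewer cells of a type and less RNA per cell cannot be told apart.

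Promoters are shown for 3 members, since a reader may want the start-site sequence beside genes that moved in different ways: Cxcl1, which did not keep a direction with 1,3BD, Cxcl12, which had the most reads of the members, and Cxcl14, which differed most between the parental groups. The sequences are the 250 bases before the start on the strand of the gene, from RefSeq on the GRCm38.p6 build, and 4 of the 10 members had an entry. Cxcl1 is at chr5:90890995-90891244 on the plus strand, Cxcl12 at chr6:117168285-117168534 on the plus strand and Cxcl14 at chr13:56296552-56296801 on the minus strand. Capitals mark matches, on either strand, to the NF-kB motif or the interferon-stimulated response element.
Cxcl1: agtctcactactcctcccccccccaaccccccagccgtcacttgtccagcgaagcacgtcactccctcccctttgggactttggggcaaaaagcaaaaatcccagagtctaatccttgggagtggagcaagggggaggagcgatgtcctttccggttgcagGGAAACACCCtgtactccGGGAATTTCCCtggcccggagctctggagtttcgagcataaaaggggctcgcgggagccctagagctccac
Cxcl12: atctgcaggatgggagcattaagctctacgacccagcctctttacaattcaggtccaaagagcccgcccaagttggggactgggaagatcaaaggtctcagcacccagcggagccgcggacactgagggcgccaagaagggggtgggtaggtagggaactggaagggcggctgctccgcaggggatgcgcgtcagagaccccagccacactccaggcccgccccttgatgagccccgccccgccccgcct
Cxcl14: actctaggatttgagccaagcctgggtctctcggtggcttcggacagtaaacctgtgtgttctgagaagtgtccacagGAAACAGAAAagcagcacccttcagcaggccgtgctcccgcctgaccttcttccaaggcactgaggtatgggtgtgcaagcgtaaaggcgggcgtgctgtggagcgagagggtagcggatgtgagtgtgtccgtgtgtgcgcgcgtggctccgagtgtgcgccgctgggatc
The NF-kB motif was read as GGG, 3 bases of any kind and TTCC, and the interferon-stimulated response element as GAAA, 2 bases of any kind and GAAA. In the Cxcl1 window the NF-kB motif was found at bases 89 to 80 before the start and, as a near-palindrome read on both strands, at bases 71 to 61, so the last 2 of the 3 matches overlap. The Cxcl14 window held the interferon-stimulated response element at bases 172 to 163 before the start. No letters of either motif, nor of AP-1 (TGANTCA), C/EBP (TTGCNNAA), TEAD (GGAATG) or the TATA box (TATAAA), were found in the Cxcl12 window. Among 32851 windows of the same length, 4.65% held the NF-kB motif, 2.98% the interferon-stimulated element, 6.75% AP-1, 9.56% C/EBP, 12.6% TEAD and 12.4% the TATA box. A match describes letters and is no evidence of binding.

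The genes sit in a few places on the GRCm38 annotation. Ccl2 (chr11:82035571-82037453), Ccl7 (chr11:82045712-82047525) and Ccl11 (chr11:82057823-82062955) follow each other on the plus strand of 1 chemokine cluster, while Ccl5 (chr11:83525778-83530518) and Cxcl16 (chr11:70453983-70459984) lie elsewhere on the same chromosome on the minus strand. Cxcl5 (chr5:90759360-90761624) and Cxcl1 (chr5:90891241-90893115) share the plus strand of another cluster. Cxcl12 (chr6:117168535-117181367, plus), Cxcl14 (chr13:56288643-56296551, minus) and Cx3cl1 (chr8:94772009-94782427, plus) stand apart. The use of strand in counting is not given in the sources used here, and 2 members overlap another gene. The antisense gene Gm17268 spans Ccl2 and had 0 reads in all 4 libraries, and Zmynd15 overlaps Cxcl16 and had between 1 and 5 reads.

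With 1,3BD in the drink, most of the chemokine genes stood far below their water level in both parental groups. Of the 8 members that reached 1 CPM in 2 or more libraries, 7 were called lower and 0 higher with 1,3BD, by limma on log2 values with a Benjamini-Hochberg adjusted p under 0.05. Their median log2 difference was -2.81, against -0.06 over all 12838 genes tested. By the same rule, 24.8% of all tested genes were called lower, and since the members were known from this contrast, nothing is read from their share. Across all 10 members, both 1,3BD libraries were below both water libraries for 8 and above both for 1, while 38.2% of tested genes did not overlap in the lower direction and 33.8% in the higher one. The calls of Cxcl5, Cxcl12 and Cxcl14 ended in some fits that left out 1 library, with 5 to 7 members still called.

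**Figure D1:**
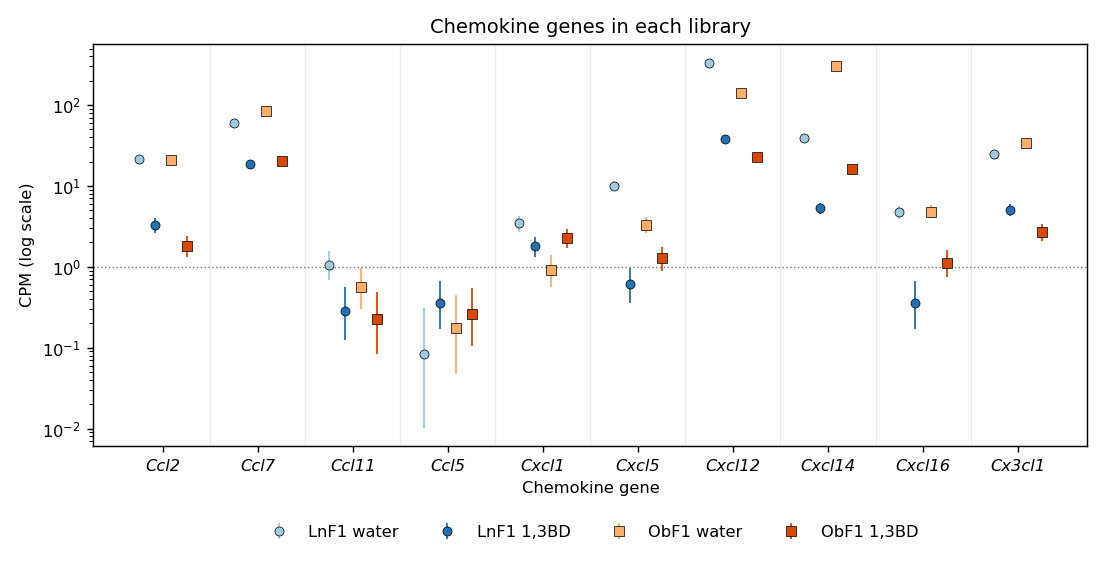
Level of each of the 10 chemokine genes, in CPM on a log axis, in the 4 libraries, with exact 95% counting intervals as bars. The water libraries lie above the 1,3BD libraries for 8 genes, and Cxcl14 in ObF1 water reaches 307.4 CPM.

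The monocyte attractants Ccl2 and Ccl7, both ligands of CCR2, were lower with 1,3BD in each parental group. Ccl2 was at 21.6 CPM in LnF1 water, 3.26 in LnF1 1,3BD, 21.1 in ObF1 water and 1.80 in ObF1 1,3BD. Both water libraries were high and nearly level, and both 1,3BD libraries were low. Its level with 1,3BD was 6.62-fold lower in LnF1 (interval 5.29 to 8.37) and 11.7-fold lower in ObF1 (8.69 to 16.1), a log2 difference over both of -3.09 (SE 0.31). Ccl7 was at 60.2 CPM in LnF1 water, 18.5 in LnF1 1,3BD, 85.2 in ObF1 water and 20.4 in ObF1 1,3BD. The libraries split by drink without overlap, and ObF1 water was the highest. Ccl7 was 3.25-fold lower in LnF1 (2.94 to 3.60) and 4.18-fold lower in ObF1 (3.80 to 4.60), with a log2 difference of -1.88 (SE 0.22), the smallest of the 7 called members.

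Ccl11 (eotaxin), which draws eosinophils through CCR3, and Ccl5 (RANTES), an attractant of T cells, were close to the limit of detection and were not tested. Ccl11 had 25 reads in LnF1 water, 8 in LnF1 1,3BD, 13 in ObF1 water and 6 in ObF1 1,3BD, or between 0.225 and 1.06 CPM. Both of its 1,3BD libraries were below its water libraries, but in ObF1 the interval of the ratio included no difference (2.51-fold lower, 0.890 to 8.05), whereas in LnF1 it did not (3.70-fold lower, 1.62 to 9.49). Ccl5 had 2, 10, 4 and 7 reads in the same order. It was the member with both 1,3BD libraries above both water libraries, and its ratio of 1,3BD to water was 4.22 in LnF1 (0.9002 to 39.6) and 1.51 in ObF1 (0.384 to 7.04), so no difference was detectable at this depth.

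Cxcl1 and Cxcl5, neutrophil attractants that act through CXCR2 and lie in the same cluster, behaved differently from each other. Cxcl5 was at 10.02 CPM in LnF1 water, 0.610 in LnF1 1,3BD, 3.30 in ObF1 water and 1.27 in ObF1 1,3BD. The drinks did not overlap, but the LnF1 libraries were the highest and the lowest of the 4. Cxcl5 was 16.4-fold lower with 1,3BD in LnF1 (10.05 to 28.7) and 2.59-fold lower in ObF1 (1.71 to 4.003), with a log2 difference of -2.60 (SE 0.57). Cxcl1 was at 3.44 CPM in LnF1 water, 1.79 in LnF1 1,3BD, 0.912 in ObF1 water and 2.25 in ObF1 1,3BD. The drinks overlapped, with both extremes in water libraries. Cxcl1 with 1,3BD was 1.92-fold lower in LnF1 (1.33 to 2.79) and 2.47-fold higher in ObF1 (1.48 to 4.27), and it was the 1 tested member not called (log2 difference 0.16, SE 0.52).

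Cxcl12, which keeps CXCR4-bearing cells in their niches and is scavenged by ACKR3, had the most reads of the members. It was at 330.6 CPM in LnF1 water, 38.3 in LnF1 1,3BD, 141.9 in ObF1 water and 22.6 in ObF1 1,3BD. Each 1,3BD library was well below each water library, and within each drink LnF1 was above ObF1. Cxcl12 was 8.64-fold lower with 1,3BD in LnF1 (8.10 to 9.22) and 6.27-fold lower in ObF1 (5.75 to 6.85), with a log2 difference of -2.88 (SE 0.21). Cxcl14, a conserved chemokine made in skin and fat, was at 39.6 CPM in LnF1 water, 5.27 in LnF1 1,3BD, 307.4 in ObF1 water and 16.01 in ObF1 1,3BD. ObF1 water stood far above the other 3 libraries, and the drinks did not overlap. Cxcl14 was 7.51-fold lower with 1,3BD in LnF1 (6.31 to 9.002) and 19.2-fold lower in ObF1 (17.4 to 21.2), the largest log2 difference of the members at -3.57 (SE 0.31).

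The membrane-bound chemokines also fell. Cxcl16, a scavenger receptor and ligand of CXCR6, was at 4.71 CPM in LnF1 water, 0.359 in LnF1 1,3BD, 4.82 in ObF1 water and 1.12 in ObF1 1,3BD. Its water libraries were level, and its 1,3BD libraries were low at 10 and 30 reads. Cxcl16 was 13.1-fold lower with 1,3BD in LnF1 (6.88 to 28.2) and 4.29-fold lower in ObF1 (2.84 to 6.65), with a log2 difference of -2.74 (SE 0.46). Cx3cl1 (fractalkine), the adhesive ligand of CX3CR1, was at 24.7 CPM in LnF1 water, 5.06 in LnF1 1,3BD, 33.7 in ObF1 water and 2.70 in ObF1 1,3BD. Drinks did not overlap, and the ObF1 libraries were the highest and the lowest. Cx3cl1 was 4.89-fold lower in LnF1 (4.07 to 5.93) and 12.5-fold lower in ObF1 (9.80 to 16.1), with a log2 difference of -2.94 (SE 0.33).

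**Figure D2:**
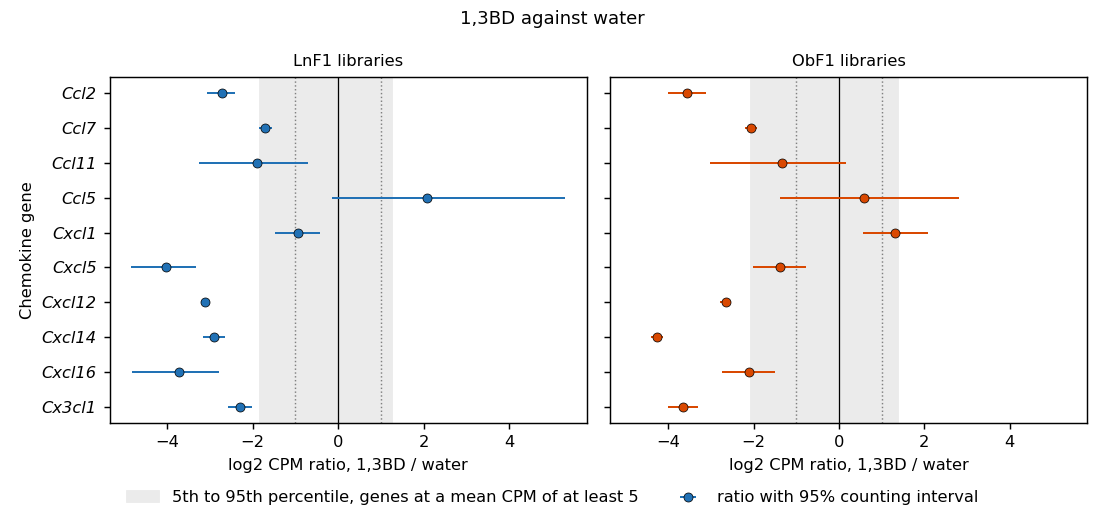
Log2 ratio of CPM with 1,3BD to CPM with water for each chemokine gene, within LnF1 (left) and within ObF1 (right), with 95% counting intervals as bars, dotted lines at a 2-fold difference and a grey band for the middle 90% of genes at a mean of at least 5 CPM. Ccl2, Ccl7, Cxcl12, Cxcl14 and Cx3cl1 lie below -1 in both panels, and Cxcl1 lies below 0 in LnF1 and above 0 in ObF1.

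Ccl2, Ccl7, Cxcl12, Cxcl14 and Cx3cl1 were the 5 members with a mean of at least 5 CPM, and all 5 were at least 2-fold lower with 1,3BD in LnF1 and in ObF1. Among the 10238 genes at that level, 14.2% were at least 2-fold lower in LnF1, 17.4% in ObF1 and 10.9% in both. The median log2 difference of the 5 members was -2.70 in LnF1 and -3.49 in ObF1, against -0.05 and -0.06 over all those genes. The members were known from these contrasts, so nothing is read from these shares or medians. The size of the drop was not the same in LnF1 and ObF1. On the log2 scale the drink difference in ObF1 minus that in LnF1 was -1.37 for Cxcl14 and -1.33 for Cx3cl1, while it was -0.79 for Ccl2, -0.36 for Ccl7 and 0.46 for Cxcl12. A difference of that kind of at least 1 in either direction was seen in 6.93% of genes at this level, and with 1 library per combination it was not tested.

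Other measures moved with the drink. The summed level of 10 macrophage and monocyte markers was 29.1 CPM in LnF1 and 16.7 in ObF1 with water, and 5.49 and 9.82 with 1,3BD, with 7 of the 10 at 1 CPM or more in some library, and Adgre1 (F4/80) between 0 and 0.806 CPM. Of 5 leukocyte markers, 2 reached 1 CPM, and the sum of all 5, mostly Cd53, was 7.13 and 16.7 CPM with water and 1.11 and 3.22 with 1,3BD. Not every gene of these lists followed its sum. Cd68 was higher with 1,3BD in both groups (1.32 and 0.956 CPM with water, 1.47 and 2.14 with 1,3BD). Ptprc, Adgre1, Itgam and Cd14 were lower in LnF1 and higher in ObF1, and most others were lower in both. Of 7 vascular endothelial markers, 5 reached 1 CPM, and their sum was 27.3 and 30.8 CPM with water and 3.59 and 5.70 with 1,3BD. All 8 pericyte and smooth muscle markers reached 1 CPM, and their sum, mostly Acta2, was 7922 and 8396 CPM with water and 184.5 and 203.7 with 1,3BD. The others did not all follow Acta2. Abcc9 was at 4.63 and 1.04 CPM with water and 2.47 and 1.27 with 1,3BD, so it was higher in ObF1. Notch3 was at 70.3 and 51.7 CPM with water and 61.5 and 24.5 with 1,3BD. All but Abcc9 were lower in both groups, by unlike amounts. The fibroblast marker sum, mostly Fn1 and Col1a1, was 34423 and 43664 CPM with water and 18122 and 21676 with 1,3BD. Only Pdgfra, a receptor that marks adipose progenitors, was higher with 1,3BD in both groups, at 242.9 and 235.6 CPM with water and 281.2 and 411.6 with 1,3BD. Cd34, Ly6a and Dcn were lower in LnF1 and higher in ObF1. The rest of the list was lower in both, such as Pdgfrb, at 538.4 and 716.4 CPM with water and 157.2 and 153.6 with 1,3BD. The mitochondrial share of reads was 1.13% and 1.30% with water and 2.78% and 5.80% with 1,3BD. The part of these shifts in the chemokine differences was not tested.

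Cxcl14 was higher in ObF1 than in LnF1 with either drink, and it was the 1 member called for parents by limma (log2 difference 2.27, SE 0.31), where 0.195% of all tested genes were called higher. With water it was 7.76-fold higher in ObF1 (interval 7.25 to 8.32), and with 1,3BD it was 3.04-fold higher (2.51 to 3.69). Of genes at a mean of at least 5 CPM, 0.440% were at least 2-fold higher in ObF1 with both drinks. Since Cxcl14 was chosen with these values in view, nothing is read from how few genes were. The call ended when any 1 of the 4 libraries was left out, in fits that also dropped the drink term, and with a pseudocount of 0.5 CPM. Pooled over drinks, LnF1 and ObF1 libraries overlapped for all 10 members, Cxcl14 included, whereas 8.44% of tested genes did not overlap in the higher direction and 8.02% in the lower one.

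**Figure D3:**
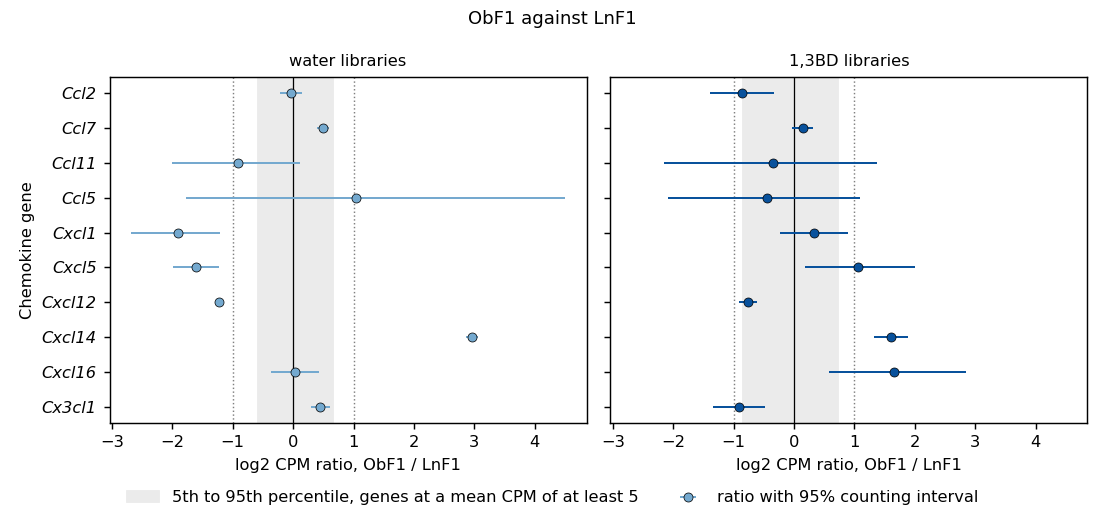
Log2 ratio of CPM in ObF1 to CPM in LnF1 for each chemokine gene, with water (left) and with 1,3BD (right), with 95% counting intervals, dotted lines at a 2-fold difference and a grey band for the middle 90% of genes at a mean of at least 5 CPM. Cxcl14 lies to the right of 1 in both panels (7.76-fold and 3.04-fold higher in ObF1), and Cxcl12 lies to the left of 0 in both.

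Cxcl12 was lower in ObF1 with both drinks. It was not called by limma or edgeR, but it was called lower by DESeq2 and by limma with no filter on low values. It was 2.33-fold lower in ObF1 with water (2.24 to 2.43) and 1.69-fold lower with 1,3BD (1.53 to 1.87), a log2 difference of -0.99 (SE 0.21). With water, Cxcl14 and Cxcl12 were the members at a mean of at least 5 CPM that were 2-fold apart, 1 higher and 1 lower, where 1.81% of genes were 2-fold higher and 1.40% lower. With 1,3BD, Cxcl14 alone was, where 1.89% of genes were 2-fold higher and 3.02% lower. The median log2 difference of the 5 members was 0.44 with water and -0.76 with 1,3BD, against 0.01 and 0.02 over all genes at that level.

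The remaining members showed small or unlike parental differences in the 2 drinks. Ccl7 was 1.42-fold higher in ObF1 with water (1.32 to 1.52), and with 1,3BD its ratio of 1.102 had an interval that included 1 (0.976 to 1.25). Ccl2 had a ratio of 0.975 with water (0.859 to 1.11) and was 1.81-fold lower in ObF1 with 1,3BD (1.26 to 2.63). Neither gene was called (log2 difference 0.32, SE 0.22 for Ccl7 and -0.43, SE 0.31 for Ccl2). Cx3cl1 was 1.36-fold higher in ObF1 with water (1.22 to 1.52) and 1.87-fold lower with 1,3BD (1.40 to 2.52). Cxcl5 was 3.03-fold lower in ObF1 with water (2.33 to 3.98) and 2.09-fold higher with 1,3BD (1.14 to 3.99). Both genes thus had opposite directions in the 2 drinks, and neither was called (log2 difference -0.22, SE 0.33 for Cx3cl1 and -0.30, SE 0.57 for Cxcl5). Cxcl1 was 3.77-fold lower in ObF1 with water (2.31 to 6.41), and with 1,3BD its ratio was 1.25 (0.848 to 1.86). Cxcl16 had a ratio of 1.02 with water (0.780 to 1.34) and was 3.14-fold higher in ObF1 with 1,3BD (1.49 to 7.19), on 10 reads in LnF1 1,3BD. They were not called either, with a log2 difference of -0.76 (SE 0.52) for Cxcl1 and 0.75 (SE 0.46) for Cxcl16. Over the 8 tested members the median parental log2 difference was -0.26, against 0.01 over all genes.

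Levels of different genes were compared per kilobase of exon, since Cxcl12 has 8176 bases of exon and Ccl7 has 801. The length is the union of all annotated exons of a gene and can exceed that of the transcripts present, which were not resolved. Ranks, shares and ratios per kilobase depend on it, and by CPM alone Cxcl12 was above Ccl7 in every library. On this scale Ccl7 had the highest mean, at 57.5 CPM per kilobase, followed by Cxcl14 (50.4), Cxcl12 (16.3), Ccl2 (10.5), Cx3cl1 (4.21), Cxcl5 (2.04), Cxcl1 (1.12), Cxcl16 (0.912), Ccl11 (0.494) and Ccl5 (0.229). The order rests on the library: Ccl7 led in LnF1 water, LnF1 1,3BD and ObF1 1,3BD, and Cxcl14 led in ObF1 water at 168.3 against 106.4 CPM per kilobase for Ccl7. The sum over the 10 genes was 172.4 CPM per kilobase in LnF1 water and 323.7 in ObF1 water, and 36.9 and 42.0 in the 1,3BD libraries.

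**Figure D4:**
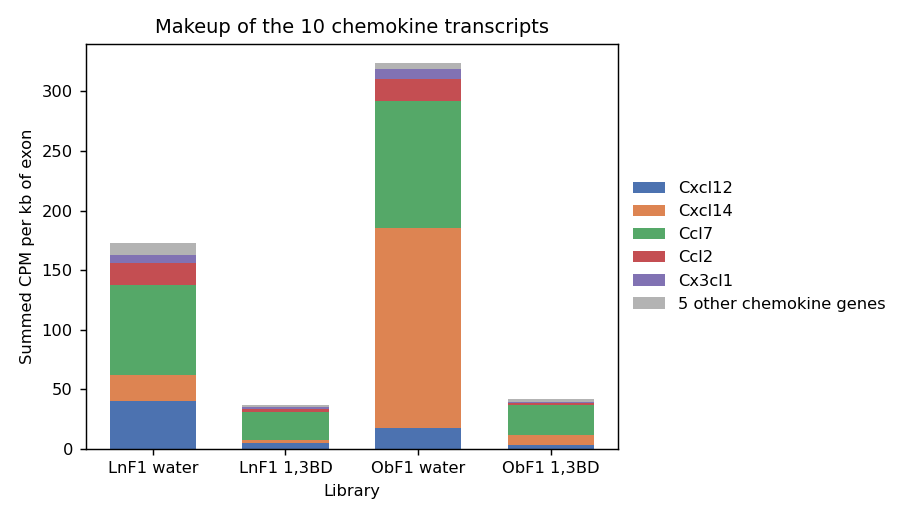
Level of the 10 chemokine genes in CPM per kilobase of exon, stacked by gene and library. The sums are 172.4 and 323.7 with water and 36.9 and 42.0 with 1,3BD, and Cxcl14 makes up 52.0% of the sum in ObF1 water.

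The makeup of that sum differed between libraries. Ccl7 was 43.6% of it in LnF1 water, 62.7% in LnF1 1,3BD, 32.9% in ObF1 water and 60.6% in ObF1 1,3BD, the highest shares being in the 1,3BD libraries. Cxcl14 was 12.6%, 7.83%, 52.0% and 20.9% in the same order, higher in ObF1 than in LnF1 with either drink. Cxcl12 was 23.5% and 12.7% in the LnF1 libraries and 5.36% and 6.58% in the ObF1 libraries. The ratio of Cxcl14 to Cxcl12 per kilobase was therefore 0.536 and 0.617 in LnF1 water and 1,3BD, and 9.70 and 3.17 in ObF1. Ccl7 and Ccl2, neighbours that share CCR2, had a ratio of 3.96 in LnF1 water, 8.06 in LnF1 1,3BD, 5.75 in ObF1 water and 16.1 in ObF1 1,3BD, with Ccl7 the more abundant in every library. Ccl7, Cxcl14, Cxcl12 and Ccl2 together made up between 90.6% and 95.9% of the sum.

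Likeness to other genes was measured as the root mean square distance between log2 profiles centred over the 4 libraries, against the 10237 other genes at a mean of at least 5 CPM. The nearest to Ccl2 were Igtp (distance 0.037), Kif26b (0.074) and Oasl2 (0.089). Those nearest to Ccl7 were Adamts5 (0.038), Tspyl3 (0.042) and Pla2g16 (0.057), and those nearest to Cx3cl1 were Fabp5 (0.046), Tmem106a (0.119) and Nes (0.129). Cxcl12 was nearest to Rab3il1 (0.211), Islr (0.218) and Pdgfrl (0.231). Cxcl14 had no gene as near: its nearest were Des (0.308), Fgd3 (0.476) and Phactr1 (0.501). Between members, the nearest pair was Ccl2 and Cx3cl1 at 0.188 and the farthest Cxcl12 and Cxcl14 at 1.73, with the neighbours Ccl2 and Ccl7 0.724 apart. With 4 points per profile these distances are descriptions of 4 libraries.

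Among the other 28 chemokine ligand genes, 5 passed the filter on low values, and of these Ccl28 and Cxcl10 passed it through the libraries of 1 drink alone, which favours a difference, so no test of them is given. Ccl25, a thymus and gut chemokine that acts through CCR9, was at 5.26 CPM in LnF1 water, 21.9 in LnF1 1,3BD, 3.91 in ObF1 water and 23.2 in ObF1 1,3BD, and it rose (log2 difference 2.29, SE 0.27, limma adjusted p = 7.73e-05). Ccl28, an epithelial chemokine, was at 0.552 and 0.825 CPM with water and 2.62 and 2.51 with 1,3BD. Ccl9, at 6.92, 0.502, 7.04 and 1.12 CPM in the same order, fell (-3.08, SE 0.41, limma adjusted p = 0.00018), and Ccl27a did not pass the test. The interferon-induced Cxcl10 was at 1.44 and 1.78 CPM with water and 0.430 and 0.187 with 1,3BD. Of all 38 ligand genes, members included, 13 had at most 3 reads in every library.

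The receptors of the members were hardly detected in these libraries. None of the 18 chemokine receptor genes passed the filter, 10 had at most 3 reads in every library, and the highest level was 0.637 CPM, for Xcr1 in LnF1 water. Ccr2, the receptor of Ccl2 and Ccl7, was at most 0.0849 CPM, Cxcr2 of Cxcl1 and Cxcl5 had 0 reads in every library, and Cxcr4 of Cxcl12 was at most 0.170 CPM. Cxcr6 of Cxcl16 was at most 0.478 CPM, and Cx3cr1 of Cx3cl1 at most 0.262. By contrast the atypical receptor Ackr3, a scavenger of Cxcl12, was at 19.1 CPM in LnF1 water, 43.4 in LnF1 1,3BD, 25.3 in ObF1 water and 84.1 in ObF1 1,3BD. Both 1,3BD libraries were above both water libraries, opposite to Cxcl12, and Ackr3 rose (log2 difference 1.45, SE 0.23, limma adjusted p = 0.000539). The atypical receptor Gpr182 was at most 0.174 CPM with water and at 1.04 and 1.12 with 1,3BD, and since it passed the filter through the 1,3BD libraries alone, no test of it is given. The other 4 atypical receptors were not tested.

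Other genes of the chemokine pathway were called in both directions with 1,3BD: of 95 tested in the lists, 24 were called higher and 27 lower, and without the 3 that passed the filter through 1 drink alone, 22 of 92 rose and 26 fell, where 44.0% of all tested genes were called, 19.2% higher and 24.8% lower. Of 21 tested genes of NF-kB signalling, 4 rose, 6 fell and 11 did not pass, with a median log2 difference of -0.28. Nfkbiz (1.1001, SE 0.25, limma adjusted p = 0.00441) and the inhibitor Nfkbia (0.96, SE 0.24, limma adjusted p = 0.00831) rose. Nfkb2, the p100 subunit (-0.99, SE 0.24, limma adjusted p = 0.00658), and the inhibitor Nfkbie (-1.15, SE 0.40, limma adjusted p = 0.0352) fell, the last with no call by edgeR or DESeq2. Of 25 inflammatory cytokines and receptors, 8 rose, 8 fell and 9 did not pass, with a median of 0.27. Lif, a cytokine of the IL-6 family (-2.17, SE 0.31, limma adjusted p = 0.000263), the alarmin Il33 (-1.61, SE 0.49, limma adjusted p = 0.024) and its receptor Il1rl1 (-1.63, SE 0.33, limma adjusted p = 0.00318) fell, and the interleukin-1 receptor Il1r1 rose (1.60, SE 0.20, limma adjusted p = 0.000134).

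**Figure D5:**
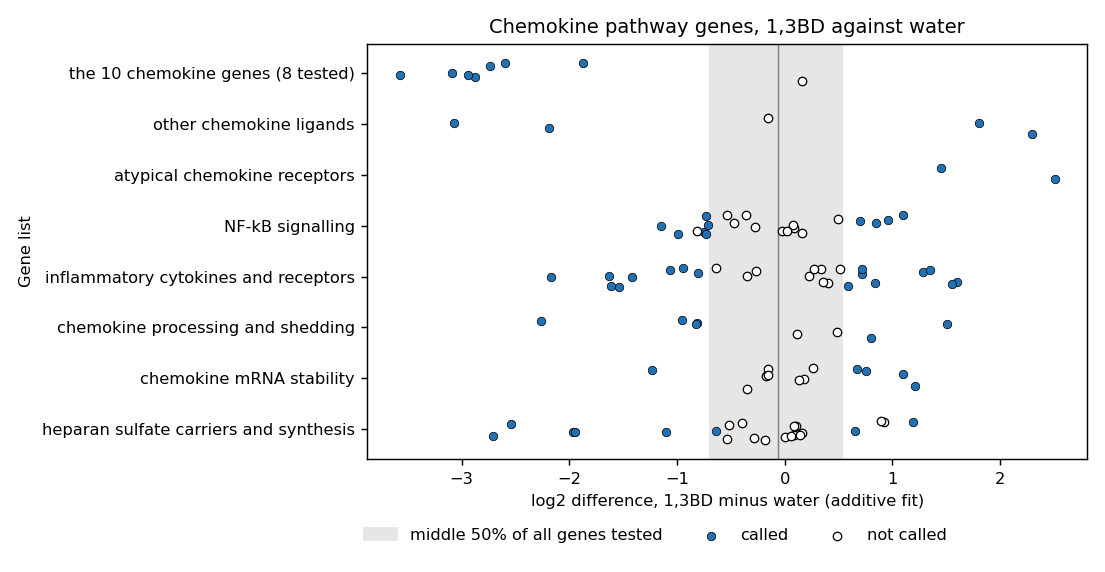
Log2 difference of 1,3BD against water for the tested genes of the chemokine group and of the pathway lists, 1 point per gene, filled where called (Ccl28, Cxcl10 and Gpr182 passed the filter through 1 drink alone), with a grey band for the middle 50% of all genes tested. The chemokine group has a median of -2.81, NF-kB signalling of -0.28 and inflammatory cytokines and receptors of 0.27.

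Genes that process, destabilise or hold chemokines were also split. Of 8 tested processing and shedding genes, 2 rose and 4 fell. Adam17, the protease that sheds Cx3cl1 and Cxcl16 on stimulation, rose (1.504, SE 0.20, limma adjusted p = 0.000156), whereas Fap, a fibroblast surface peptidase (-2.27, SE 0.34, limma adjusted p = 0.000408), Mmp14, a membrane matrix protease (-0.95, SE 0.26, limma adjusted p = 0.0129), and Ctsd, a lysosomal protease (-0.83, SE 0.25, limma adjusted p = 0.0239), fell. Of 12 genes of mRNA stability, 4 rose, 1 fell and 7 did not pass. The decay factors Zfp36l1 (1.21, SE 0.24, limma adjusted p = 0.00249), Zc3h12c (1.09, SE 0.25, limma adjusted p = 0.00523) and Rc3h2 (0.76, SE 0.20, limma adjusted p = 0.0108) rose, and Arid5a, which stabilises Il6 mRNA, fell (-1.24, SE 0.28, limma adjusted p = 0.0051).

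Heparan sulfate carriers and enzymes, on which chemokines are held, gave 2 that rose, 6 that fell and 14 that did not pass. The carriers Sdc3 (-2.71, SE 0.20, limma adjusted p = 2.81e-06) and Gpc4 (-1.96, SE 0.20, limma adjusted p = 3.1e-05) and the 6-O-sulfotransferases Hs6st2 (-2.54, SE 0.19, limma adjusted p = 3.9e-06) and Hs6st1 (-1.94, SE 0.21, limma adjusted p = 4.32e-05) fell in these data. Relative to library totals alone, with no scaling factor, the median of all genes moved by 0.25 on the log2 scale and the list genes split as 30 higher and 18 lower, while the same 7 chemokine genes were called lower.

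For parents, 0 of the 95 list genes were called by limma or by edgeR, 1 by DESeq2, and 15 had an unadjusted limma p under 0.05. Over all 12838 genes tested, 1392 had an unadjusted limma p under 0.05, so nothing is read from those 15. The largest differences, none past the threshold by limma, were those of Gpc3, a glypican (-1.41, SE 0.39, limma adjusted p = 0.255), Tlr3, the receptor of double-stranded RNA (1.05, SE 0.35, limma adjusted p = 0.306), Tnfaip3, an NF-kB inhibitor (0.87, SE 0.28, limma adjusted p = 0.273), and the syndecan Sdc2 (0.85, SE 0.19, limma adjusted p = 0.118). Sdc2 was the gene called by DESeq2 (adjusted p = 0.0449), and with no filter on low values limma called both Sdc2 (adjusted p = 0.00655) and Gpc3 (adjusted p = 0.000102). Ackr3 had a parental difference of 0.68 (SE 0.23, limma adjusted p = 0.303). Cxcl14 was thus the 1 gene called for parents among the members and the pathway lists by limma. It was chosen with these values in view, and its call did not hold with a pseudocount of 0.5 CPM or without the drink term.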

How the data were processed

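The deposited table holds a scaled signal per gene for 4 libraries. It is named as raw counts, but each value was a whole multiple of its column's smallest value (100% within a relative tolerance of 1e-06), so the values are CPM on scaled library totals and the reads behind them were recovered. Per the submitters' processing notes, mm10, edgeR and DESeq2 were used, without stated roles. The sources used here do not name the aligner, the counter or the use of strand. Per the labels' protocols, the RNA was TRIzol-extracted and sequenced from KAPA mRNA libraries. The columns that name no drink were matched to water.

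The 12838 genes that reached 1 CPM in 2 or more libraries were fitted with limma 3.58.1, additive in parents and drink. Input was log2(CPM + 0.0796), with trend and robust moderation. The added value equals 2 reads and understates changes of low genes. The fit leaves 1 residual degree of freedom, so a gene's own error measures how unlike its difference was between drinks or between parental groups. The printed SE is moderated, that is, drawn toward the error of other genes at a like level. It can be smaller than the gene's own error. For Cxcl14 the parental log2 difference was 2.95 with water and 1.59 with 1,3BD, beside a printed SE of 0.31. A gene was called at a Benjamini-Hochberg adjusted p under 0.05. With no replicates, p-values do not measure the spread between animals. Fold values are CPM ratios of single libraries, with exact conditional binomial intervals, and CPM levels have exact Poisson intervals. Exon lengths, as the union of all exons of a gene, came from the supplied GRCm38 annotation.

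The members, lists and tests were chosen with earlier results of these data known. All 10 members are named. From each list the rule names up to 4 genes with the largest drink difference and up to 2 with the largest parental difference, of which the text gives a selection. Alternatives were edgeR 4.0.16 and DESeq2 1.42.0 on recovered reads, other pseudocounts, filters and scaling, and leaving out each library. The limma step was run on simulated counts in which few genes changed, and only additively. That setting is unlike these data, so it is no check of the calls given here.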

Additional observations from a re-analysis of the deposited data

Results flagged for a closer look

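The chemokine genes Cxcl5, Cx3cl1 and Cxcl1 had opposite directions under the same contrast, with counting intervals of the ratio that excluded no difference on each side. Cxcl5 was lower in ObF1 than in LnF1 with water (log2 difference -1.58) and higher with 1,3BD (0.97). Cx3cl1 was higher in ObF1 with water (0.44) and lower with 1,3BD (-0.89). Cxcl1 was lower with 1,3BD than with water in LnF1 (-0.91) and higher in ObF1 (1.23). Each value sets 1 library against 1 library, so these differences between drinks or between parental groups were not tested, and counting intervals do not cover the spread between pools.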

How the results depend on the processing

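None of the 8 tested members changed direction for drink or parents in any alternative fit of all 4 libraries, and Ccl5 and Ccl11 were not followed. The number of members called lower with 1,3BD was 7, and 5 to 7 when 1 library was left out: Cxcl12 and Cxcl14 were lost without ObF1 1,3BD, Cxcl5 and Cxcl14 without LnF1 1,3BD, and Cxcl5 without LnF1 water. Members called for parents numbered 1, against 2 by DESeq2 (Cxcl12 lower as well) and 2 with no filter on low values, 0 with a pseudocount of 0.5 CPM, 0 without the drink term, and 0 to 0 when 1 library was left out. Of the pathway list genes, 0 were called for parents, 1 by DESeq2, 4 with no filter and 0 to 0 with 1 library left out. For drink, 51 were called, and 15 to 47 with 1 library left out, at 15 without LnF1 water, 19 without ObF1 water and 27 without ObF1 1,3BD. Of the named list genes, Nfkbie lost its drink call by edgeR, DESeq2, library totals alone and without the parental term, Ctsd under the last of these and library totals alone, and Il33 and the member Cxcl14 without the parental term. Fits with 3 libraries dropped the covariate and assume that a lone library varies like the others.

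Counted by size, 2 members were 2-fold apart between parents with water and 4 at a mean of at least 1 CPM. With 1,3BD 1 was, against 2 at a mean of at least 1 CPM and 4 at a fold of 1.5. For drink in ObF1, 5 were, against 8 at a mean of at least 1 CPM. Over all genes, parental calls were 25 higher and 13 lower, 69 and 48 by DESeq2, 16 and 13 with library totals alone (which moved the median gene by -0.11), 11 and 5 with the larger pseudocount, 196 and 156 with no filter, and 0 without the drink term (39 at an unadjusted p under 0.05). Drink calls were 2466 higher and 3189 lower, 3687 and 2270 with library totals alone, and 668 and 1232 without LnF1 water. The cause of these shifts was not tested. No paired analysis was possible because each combination has 1 library and the labels give no replicate numbers. Depth limits Ccl5, Ccl11 and the receptors, which had few reads.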
